A study of Mus musculus with 8 samples.

Results

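The 10 genes described here encode the conjugation and membrane machinery that builds the autophagosome: Atg7, Atg10, Atg3, Atg12, Atg5 and Atg16l1 of the conjugation systems, and Atg9a, Atg2a, Wipi1 and Wipi2 of membrane supply and expansion. They were chosen by symbol, and each symbol was represented by its transcript row with the highest total count over the 8 labelled libraries. All 10 were found among the 23366 gene symbols of the count table, and all 10 were among the 14418 genes that passed the filter on low counts. The RNA came from MEFs, fibroblasts cultured from mouse embryos, here of the C57BL/6 strain and between passage 3 and passage 5. The 4 groups of 2 libraries were kdm3a KO cells kept 12 h without glucose (KO-labelled starved), kdm3a KO cells at 0 h (KO-labelled fed), WT cells kept 12 h without glucose (WT starved) and WT cells at 0 h (WT fed). Fed cells grew in DMEM with 10% serum. For starvation the medium was DMEM lacking glucose, supplemented with 10% dialyzed serum, so loss of glucose cannot be told apart from the change of serum, the wash and the 12 h of time. The labels give neither the KO allele nor the number of embryos or cultures, and p-values therefore measure the spread between these libraries, which may be technical.

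Autophagy encloses cytoplasm in a double membrane that grows from a cup-shaped precursor, the phagophore, and delivers it to the lysosome for breakdown. ATG7 activates the ubiquitin-like proteins ATG12 and those of the LC3 and GABARAP family, ATG10 passes ATG12 to ATG5, and ATG3 passes LC3 to the lipid phosphatidylethanolamine. The ATG12-ATG5 conjugate binds ATG16L1, and this complex directs where LC3 is attached to the growing membrane. WIPI1 and WIPI2 bind a phosphoinositide lipid on the phagophore, WIPI2 also binds ATG16L1, ATG2A carries lipids between membranes, and ATG9A is a membrane-spanning lipid scramblase that travels in vesicles. KDM3A removes methyl groups from lysine 9 of histone H3, and the series asks how its loss bears on autophagy genes with nutrients and without glucose.

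With 1 row per gene the libraries held 38407520 to 53602289 counts. Kdm3a, the targeted gene, stood at 65.4 and 66.7 CPM (counts per 1000000 of the scaled library total) in KO-labelled starved libraries and at 55.2 and 55.4 CPM in KO-labelled fed libraries, against 176 and 185 CPM in WT starved and 56.1 and 56.4 CPM in WT fed libraries. Fed libraries of both labels thus held about the same level (log2 fold change -0.02 ± 0.043, adjusted p = 0.619, edgeR quasi-likelihood test), and counts over whole transcripts cannot show a deleted exon, so the term KO-labelled is kept throughout and every direction between genotypes rests on it. Each of 4 Y-linked genes was at 0 to 2 counts per KO-labelled library and at 296 to 1251 per WT library, and Xist had 43713 to 72498 counts in KO-labelled and 31 to 58 in WT libraries. Genotype and sex of the cells therefore cannot be told apart. All 10 fibroblast markers passed the filter, with a summed level of 13200 to 13400 CPM in KO-labelled starved, 11500 to 11600 CPM in KO-labelled fed, 20300 to 21300 CPM in WT starved and 20200 to 20800 CPM in WT fed libraries. That sum is carried mostly by Vim, Fn1 and the collagens, and single markers went opposite ways. In fed cells Col1a2 was 23.1-fold and Thy1 16.2-fold lower in KO-labelled than in WT libraries, and Dcn was 21.3-fold higher. In WT starvation Col1a1 was 18.8-fold and Col3a1 21.9-fold lower, and Vim was 2.58-fold higher. Of 8 macrophage and blood markers 4 passed, and their list summed to 53.2 to 54.2 CPM in KO-labelled starved, 21.5 to 22.1 CPM in KO-labelled fed, 7.0 to 10.2 CPM in WT starved and 19.0 to 19.4 CPM in WT fed libraries, with Ptprc, Emr1 and Tyrobp at 0 counts in all 8. Cd68 (40.9 and 40.7 CPM) made up most of the KO-labelled starved sum. In KO-labelled starvation Cd68 was 11.6-fold and Csf1r 14.8-fold higher, and Cd14 was 2.75-fold lower. The endothelial list (3 of 6 passed) summed to 52.9 to 54.9 CPM in WT starved and to at most 5.5 CPM in the other groups, with Tie1 and Emcn at 0 counts in all 8. The WT starved sum was nearly all Kdr (54.8 and 52.8 CPM), and Cdh5, Tek and Pecam1 were each at 0 to 0.121 CPM there. The epithelial list (3 of 6) summed to 2.01 to 4.35 CPM in KO-labelled and 21.4 to 25.5 CPM in WT libraries, the muscle list (1 of 5, with Myod1, Myog and Myf5 at 0 counts) to at most 1.54 CPM, and the neural list (2 of 6) to 1.23 to 3.0 CPM in KO-labelled and 5.19 to 18.5 CPM in WT libraries, with Sox10 and Nefl at 0 counts. Krt19 (18.61 to 23.55 CPM) made up most of the epithelial sum in WT libraries, where Epcam, Krt8, Krt18 and Cldn4 were each at most 0.636 CPM. Tubb3 (5.13 to 15.8 CPM) made up most of the neural sum in WT libraries. The part of these other markers in the results was not tested.

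Atg16l1 and Atg9a lie on mouse chromosome 1, Wipi2 on 5, Atg7 on 6, Atg5 on 10, Wipi1 on 11, Atg10 on 13, Atg3 on 16, Atg12 on 18 and Atg2a on 19 (GRCm38.p6). In that annotation 6 of the 10 genes share ground with another annotated gene, such as Atg12 with Ap3s1, and without a known strand reads from shared ground cannot be told apart. The promoters were searched for letters known to be read by stress and nutrient factors, and for the CCAAT box, which many promoters hold. RefSeq promoter sequences of 300 bases, 250 upstream of the gene start and 50 downstream (GRCm38.p6), were matched for 8 of the 10 genes, Atg12 and Atg16l1 being the others. The E-box CACGTG, which is its own reverse complement and the core of the element bound by TFEB and its relatives, was found in 3 of the 8 (Atg3, Atg5 and Atg7) and in 7.15% of all 32851 promoters. Atg3 held it at positions -94 and -71 from the start, Atg7 at -132 and Atg5 at -14. The C/EBP-ATF letters TGATGNAA were in 0 of the 8 and in 3.97% of all promoters, the forkhead letters GTAAACA in 0 of 8 and 3.65%, both on either strand. The CCAAT box, searched as ATTGG on both strands, was in 3 of 8 (Atg2a, Atg7 and Atg9a) and 37.4%, did not overlap an E-box in these promoters, and in Atg7 overlapped itself on the other strand. A match is a description of the letters and not a measured binding site. The 140 bases before the start are shown 5′ to 3′ for the 3 genes with an E-box, in capitals, and for Wipi1 as an example of the 5 without one. Those 5 include genes called higher in starved cells (Wipi2, and Atg10 in KO-labelled cells) as well as lower (Wipi1 and Atg9a):
Atg3 (chr16:45158689-45158828, plus strand): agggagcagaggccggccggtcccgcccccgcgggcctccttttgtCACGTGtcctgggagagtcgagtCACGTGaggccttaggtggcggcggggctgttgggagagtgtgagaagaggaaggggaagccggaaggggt
Atg5 (chr10:44268199-44268338, plus strand): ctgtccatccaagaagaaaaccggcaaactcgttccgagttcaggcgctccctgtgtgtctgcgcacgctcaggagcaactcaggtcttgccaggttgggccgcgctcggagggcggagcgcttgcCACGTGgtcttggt
Atg7 (chr6:114670956-114671095, plus strand): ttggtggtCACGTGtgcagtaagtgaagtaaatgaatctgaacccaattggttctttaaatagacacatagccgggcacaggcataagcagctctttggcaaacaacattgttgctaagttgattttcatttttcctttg
Wipi1 (chr11:109611390-109611529, minus strand): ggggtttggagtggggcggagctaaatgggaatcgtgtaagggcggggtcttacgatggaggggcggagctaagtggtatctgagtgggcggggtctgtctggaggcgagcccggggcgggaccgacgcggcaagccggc

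Starvation was compared with feeding within each genotype label. In KO-labelled cells all 6 conjugation genes rose, and of the membrane genes Wipi2 rose while Atg9a, Atg2a and Wipi1 fell. In WT cells 5 of the 6 conjugation genes rose, Wipi2 and Atg2a rose, and Atg9a and Wipi1 fell. Counted over the set, 10 of 10 passed in KO-labelled cells, against 79.7% of all genes tested: 7 rose, against 39.4%, and 3 fell, against 40.3%. In WT cells 9 of 10 passed, against 81.6% of all genes: 7 rose, against 36.7%, and 2 fell, against 44.8%. The median log2 fold change of the 10 was 0.43 in KO-labelled cells, where that of all genes was -0.02, and 0.40 in WT cells, where it was -0.17. A gene was called where the adjusted p from edgeR's quasi-likelihood test was under 0.05, and fold changes are log2 values ± SE of starved over fed. In bulk RNA, fewer cells of a type and less RNA per cell cannot be told apart.

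These splits depend on scaling. Scaled by library totals in place of TMM (edgeR's trimmed mean of M values), the median of all genes moved by -0.25 in KO-labelled and -0.46 in WT cells. The share of all calls that were higher went to 37% in place of 49.4% in KO-labelled cells, and to 28.2% in place of 45% in WT cells. Of the members, 4 were then higher and 3 lower in KO-labelled cells, where 4261 of all 14418 genes tested were higher and 7242 lower. In WT cells 4 members were higher and 4 lower, where 3397 of all genes were higher and 8629 lower. Atg3, Atg12, Atg16l1 and Wipi2 were the higher ones and Wipi1 and Atg9a were lower under both scalings in both genotype labels. Directions below are relative to TMM scaling.

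**Figure D1:**
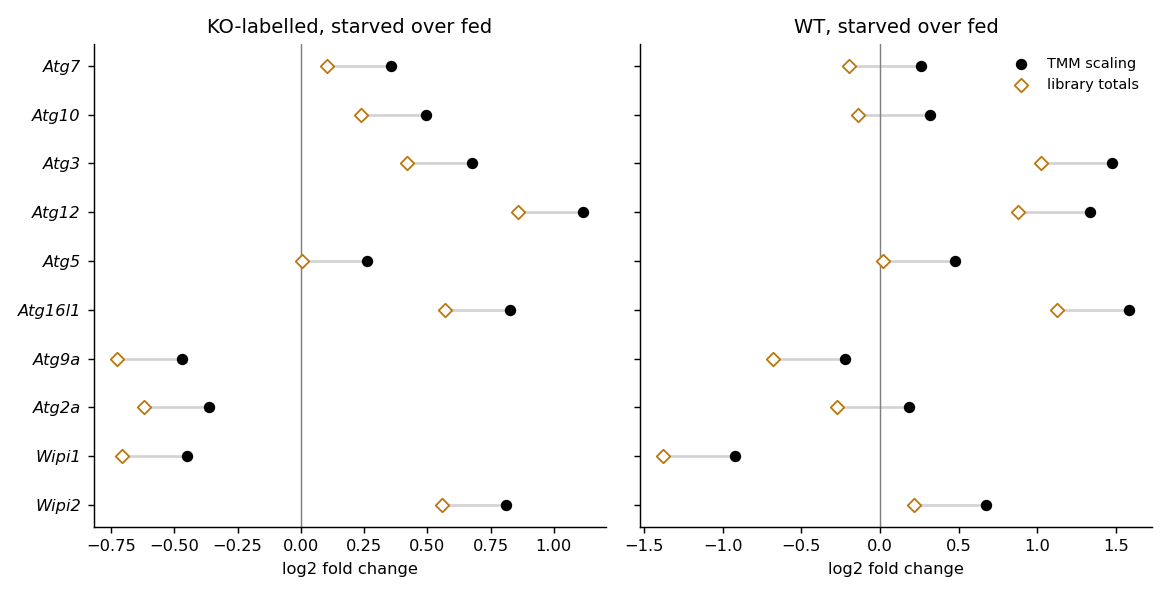
Log2 fold change of starved over fed for each gene in KO-labelled and WT cells, with TMM scaling (filled circles) and with library totals (open diamonds). Each value moves to the left with library totals; in WT cells those of Atg7, Atg2a and Atg10 change sign (Atg10 was not called under either), and those of Atg5 come to 0.00 in KO-labelled and 0.02 in WT cells.

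Atg7, the activating enzyme that both conjugation systems share, was read at 35.6 and 34.6 CPM in KO-labelled starved and 27.4 and 27.4 CPM in KO-labelled fed libraries, and at 33.0 and 36.2 CPM in WT starved and 28.7 and 29.0 CPM in WT fed libraries. Starved libraries were higher than fed ones without overlap under both labels, by 0.36 ± 0.060 in KO-labelled cells (adjusted p = 1.39e-05) and by 0.26 ± 0.063 in WT cells (adjusted p = 0.000747). With library totals the first call was lost (0.10) and the second turned to -0.20. Without WT starved replicate 1 the WT value was 0.40. How many of all genes show no overlap with 2 libraries a group was not counted.

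Atg10, which hands ATG12 to ATG5, had the lowest level of the set, with 143 to 219 counts per library against at least 687 for every other member. It stood at 3.53 and 4.14 CPM in KO-labelled starved and 2.63 and 2.84 CPM in KO-labelled fed libraries, and at 6.26 and 5.66 CPM in WT starved and 4.33 and 5.24 CPM in WT fed libraries. The KO-labelled groups did not overlap and the call was a rise of 0.49 ± 0.171 (adjusted p = 0.0122). It was lost with library totals (0.24), without KO-labelled fed replicate 1 (0.44) and without KO-labelled starved replicate 2 (0.37). The WT groups did not overlap either, but their difference of 0.32 ± 0.165 did not pass (adjusted p = 0.0809). It passed without WT fed replicate 2 (0.46), without WT starved replicate 2 (0.47), with DESeq2 size factors (0.38) and with only the WT libraries in the fit (0.39).

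Atg3, which attaches LC3 to lipid, differed most between the labels in its response. Its level was 75.2 and 71.5 CPM in KO-labelled starved and 47.5 and 44.1 CPM in KO-labelled fed libraries, and 127 and 125 CPM in WT starved and 44.9 and 45.7 CPM in WT fed libraries. The WT fed libraries lay between the KO-labelled fed ones, and the WT starved libraries stood above all others. The rise was 0.68 ± 0.046 in KO-labelled cells (1.60-fold; adjusted p = 1.41e-11) and 1.48 ± 0.047 in WT cells (2.78-fold; adjusted p = 1.89e-17). With library totals it was 0.42 in KO-labelled cells.

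Atg12, the ubiquitin-like protein of the first conjugation system, was read at 77.6 and 73.8 CPM in KO-labelled starved and 34.8 and 35.2 CPM in KO-labelled fed libraries, and at 85.6 and 85.5 CPM in WT starved and 33.2 and 34.6 CPM in WT fed libraries. Starved and fed libraries were far apart under both labels. The rise was 1.11 ± 0.046 in KO-labelled cells (2.16-fold) and 1.33 ± 0.048 in WT cells (2.52-fold). With library totals the WT rise was 0.88.

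Atg5, the acceptor of ATG12, moved less. It stood at 33.8 and 32.1 CPM in KO-labelled starved and 26.8 and 28.2 CPM in KO-labelled fed libraries, and at 40.5 and 44.0 CPM in WT starved and 29.7 and 31.2 CPM in WT fed libraries. Groups did not overlap, and the rise was 0.26 ± 0.062 in KO-labelled cells (adjusted p = 0.000649) and 0.47 ± 0.063 in WT cells (adjusted p = 6.15e-07). Both calls were lost with library totals, and the KO-labelled value was 0.15 with a minimum of 5 CPM.

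Atg16l1, whose product completes the conjugating complex, was read at 53.1 and 55.0 CPM in KO-labelled starved and 30.8 and 30.2 CPM in KO-labelled fed libraries, and at 52.1 and 51.9 CPM in WT starved and 17.0 and 17.7 CPM in WT fed libraries. Starved levels were close under both labels, whereas KO-labelled fed libraries stood above WT fed libraries. The rise was 0.82 ± 0.052 in KO-labelled cells (1.77-fold) and 1.58 ± 0.059 in WT cells (3.00-fold). The table holds 3 transcript rows for Atg16l1 and 3 for Atg7, with nearly the same counts in each row, so they do not tell isoforms apart; WT fed replicate 1 had 733, 729 and 729 counts in the Atg16l1 rows.

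**Figure D2:**
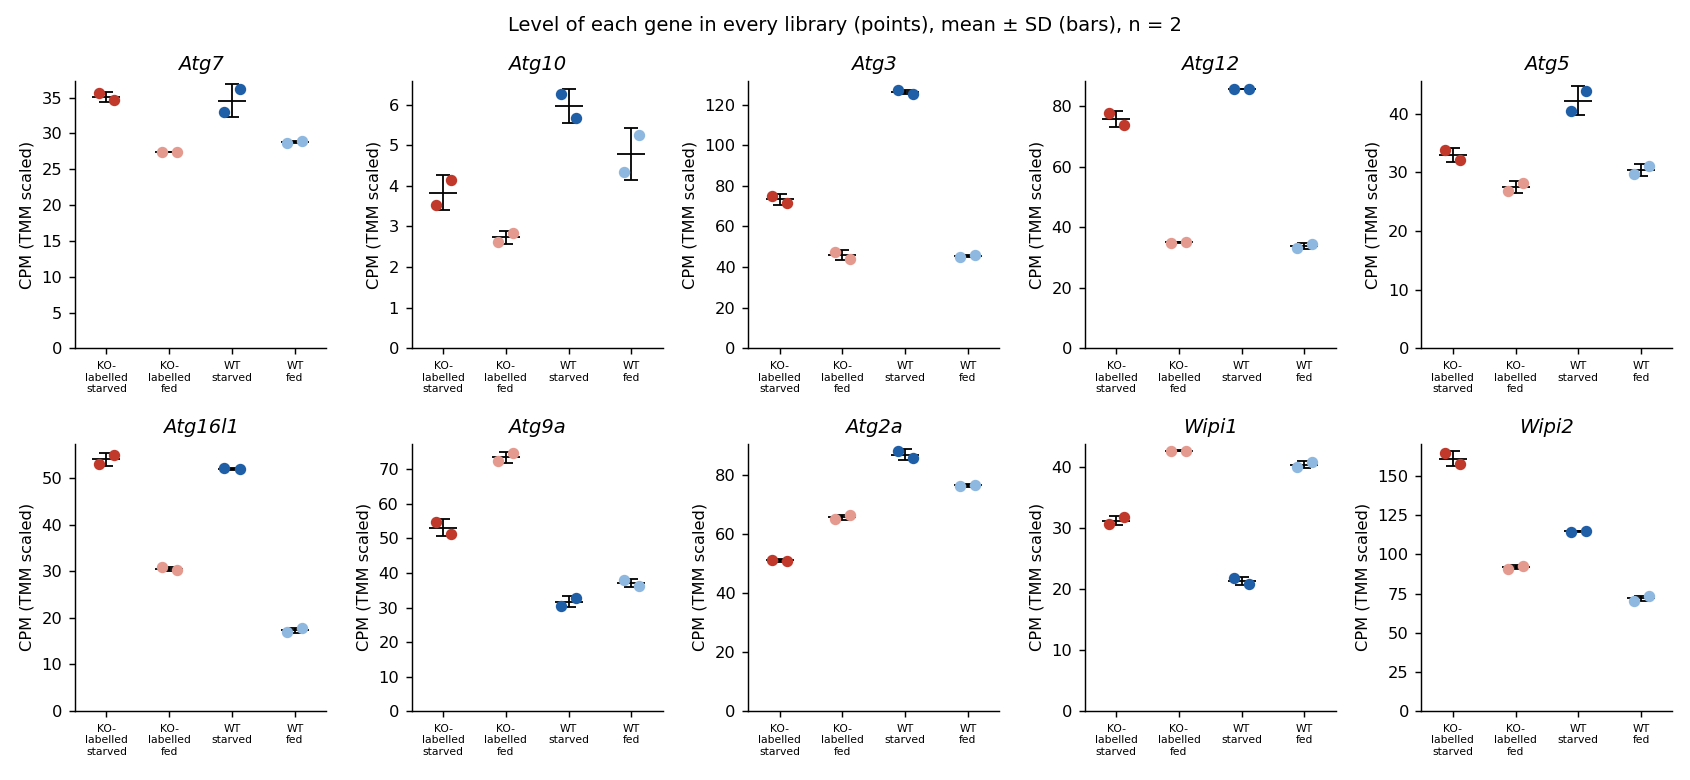
Level of each gene in CPM (TMM scaled; linear axes from 0) in the 2 libraries of each group (points), with mean ± SD (bars, n = 2). Atg3 is highest in WT starved libraries (127 and 125 CPM), Atg9a in KO-labelled fed libraries (72.4 and 74.7 CPM) and Wipi2 in KO-labelled starved libraries (164 and 158 CPM).

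Among the membrane genes, Atg9a stood at 54.8 and 51.3 CPM in KO-labelled starved and 72.4 and 74.7 CPM in KO-labelled fed libraries, and at 30.5 and 32.9 CPM in WT starved and 37.8 and 36.4 CPM in WT fed libraries. Each KO-labelled library was above each WT library. Atg9a fell by 0.47 ± 0.050 in KO-labelled cells (adjusted p = 1.9e-08) and by 0.23 ± 0.058 in WT cells (adjusted p = 0.00125). With library totals the values were -0.73 and -0.68, and the WT call was lost without WT starved replicate 1 (-0.10, adjusted p = 0.177).

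Atg2a, the lipid carrier, was read at 51.3 and 50.8 CPM in KO-labelled starved and 65.0 and 66.3 CPM in KO-labelled fed libraries, and at 88.2 and 85.7 CPM in WT starved and 76.2 and 76.8 CPM in WT fed libraries. Each WT library stood above each KO-labelled library. Atg2a fell by 0.36 ± 0.042 in KO-labelled cells (adjusted p = 8.69e-08) and was called higher by 0.18 ± 0.042 in WT cells (adjusted p = 0.000412), a rise that turned to -0.27 with library totals. The WT value was 0.12 with a minimum of 5 CPM and 0.28 without WT starved replicate 2, and the KO-labelled value was -0.62 with library totals.

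The WIPI genes moved in opposite directions. Wipi1 was read at 30.7 and 31.8 CPM in KO-labelled starved and 42.7 and 42.6 CPM in KO-labelled fed libraries, and at 21.8 and 20.8 CPM in WT starved and 40.0 and 40.8 CPM in WT fed libraries. It fell by 0.45 ± 0.055 in KO-labelled cells (adjusted p = 1.7e-07) and by 0.92 ± 0.061 in WT cells (adjusted p = 6.76e-12). Wipi2 was read at 164 and 158 CPM in KO-labelled starved and 90.8 and 92.6 CPM in KO-labelled fed libraries, and at 114 and 115 CPM in WT starved and 70.5 and 73.2 CPM in WT fed libraries. It rose by 0.81 ± 0.038 in KO-labelled cells (1.76-fold; adjusted p = 1.69e-14) and by 0.67 ± 0.040 in WT cells (1.60-fold; adjusted p = 1.13e-12). No group of either gene overlapped another. With library totals Wipi1 was at -0.705 in KO-labelled cells, and Wipi2 at 0.22 in WT cells.

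**Figure D3:**
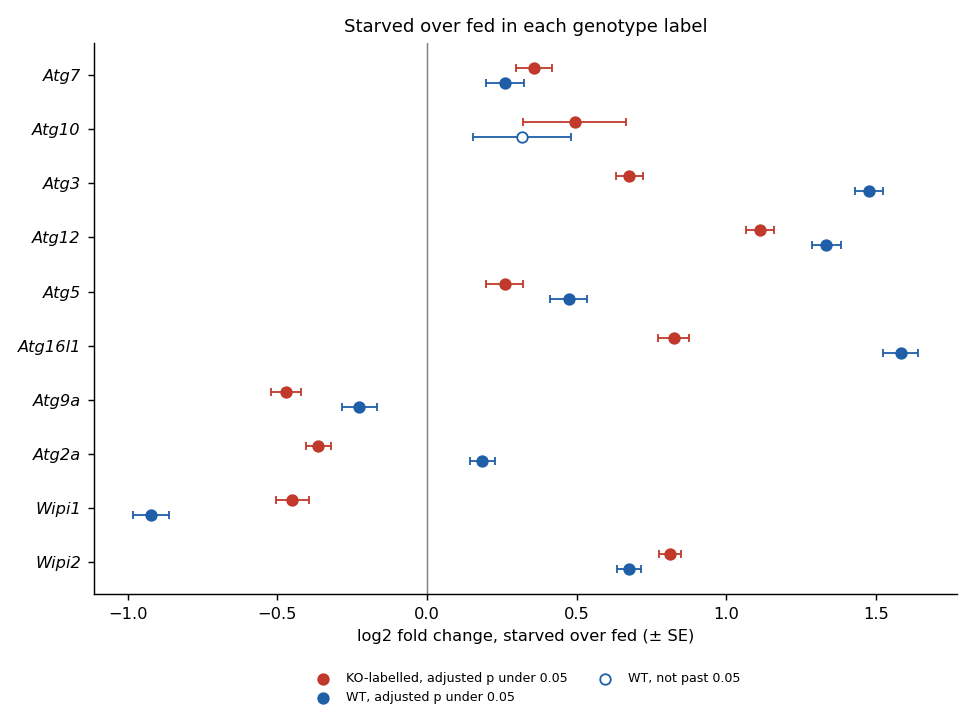
Log2 fold change of starved over fed (± SE, TMM scaling) for each gene in KO-labelled cells (red) and WT cells (blue); filled points passed an adjusted p of 0.05. Atg3 (0.68 and 1.48) and Atg16l1 (0.82 and 1.58) lie furthest apart, Wipi1, Wipi2 and Atg9a have the same sign under both labels, and Atg2a has opposite signs (with library totals it is lower under both).

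Whether the response differed between the labels was tested as the KO-labelled log2 fold change minus that of WT. The conjugation genes Atg3, Atg16l1, Atg12 and Atg5 rose less in KO-labelled cells, Wipi1 fell less, Atg9a fell more, and Atg2a went the other way. The difference passed for 8 of the 10 genes, against 64.5% of all genes: 6 had a lower value, against 30.4%, and 2 a higher one, against 34.1%. The median difference was -0.22, and that of all genes was 0.10. The largest differences were in Atg3 (-0.80 ± 0.066, adjusted p = 9.14e-10), Atg16l1 (-0.76 ± 0.079, adjusted p = 3.3e-08) and Atg2a (-0.55 ± 0.060, adjusted p = 6.57e-08). Wipi1 differed by 0.47 ± 0.082 (adjusted p = 3.47e-05). These 4 kept their sign and their call with library totals, where the median of all genes moved by 0.19, the share of calls that were higher to 67% in place of 52.9% and Atg2a was at -0.35, and in the other settings run, where Wipi1 was at 0.31 without WT starved replicate 2.

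The remaining calls of the response difference were small. Atg9a differed by -0.245 ± 0.076 (adjusted p = 0.00805) and Atg12 by -0.22 ± 0.067 (adjusted p = 0.00651). Both calls were lost with library totals (-0.04 and -0.02), and without WT starved replicate 1 the values were -0.42 and -0.35. Without WT starved replicate 2 Atg12 was at -0.35. Atg5 differed by -0.21 ± 0.088 (adjusted p = 0.0397), a call lost with library totals (-0.01) and without WT fed replicate 1 (-0.17), KO-labelled fed replicate 2 (-0.17) or KO-labelled starved replicate 2 (-0.18). It was at -0.40 without WT starved replicate 1. Wipi2 was called higher by 0.14 ± 0.055 (adjusted p = 0.0328), but the call was lost under 10 of 15 other settings. These were DESeq2 (0.04), the other filters, summed rows, and the removal of WT fed replicate 2 (0.12), KO-labelled fed replicate 1 (0.13), KO-labelled starved replicate 1 (0.11) or either WT starved library (0.01 each). Atg7 (0.10 ± 0.087, adjusted p = 0.347) and Atg10 (0.18 ± 0.237, adjusted p = 0.54) did not pass. Atg7 was called higher with library totals (0.30), where Wipi2 stood at 0.34.

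KO-labelled cells were next compared with WT cells in the same medium, a comparison that shares its libraries with the response difference. In fed cells Atg9a, Atg16l1 and Wipi2 were higher in KO-labelled libraries and Atg10, Atg2a and Atg5 were lower. That was 6 of 10 genes, against 74.4% of all genes, with 3 higher, against 34.5%, and 3 lower, against 39.8%. Atg9a was higher by 0.99 ± 0.052 (1.98-fold; adjusted p = 2.8e-13), Atg16l1 by 0.82 ± 0.059 (1.76-fold; adjusted p = 5.89e-11) and Wipi2 by 0.35 ± 0.040 (adjusted p = 7.2e-08). Atg10 was lower by a log2 fold change of -0.81 ± 0.170 (adjusted p = 0.000224) and Atg2a by -0.22 ± 0.041 (adjusted p = 6.67e-05), which was -0.10 with library totals. The small difference in Atg5 (-0.15 ± 0.063, adjusted p = 0.0414) passed with TMM but not under 12 of 16 other settings, including DESeq2 (-0.11) and the removal of WT fed replicate 2 (-0.11), KO-labelled fed replicate 1 (-0.11), KO-labelled starved replicate 2 (-0.14) or either WT starved library (-0.08). Atg3 (0.02 ± 0.048), Atg12 (0.04 ± 0.050), Atg7 (-0.07 ± 0.062) and Wipi1 (0.08 ± 0.054) did not pass. With library totals, which moved the median of all genes by 0.11, the share of calls that were higher was 55.1% in place of 46.4%. Atg3, Atg12 and Wipi1 were then called higher (0.13, 0.16 and 0.19), and 6 members were higher and 2 lower. Of all 14418 genes tested, 5811 were then higher and 4737 lower. Wipi1 also passed with a minimum of 5 CPM, with only the fed libraries in the fit and without either WT starved library (0.13 to 0.14).

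In starved cells Atg9a, Wipi1 and Wipi2 were higher in KO-labelled than in WT libraries, and Atg3, Atg2a, Atg10, Atg5 and Atg12 were lower. That was 8 of 10 genes, against 79.6% of all genes, with 3 higher, against 41.9%, and 5 lower, against 37.7%. The median of the 10 was -0.08, and that of all genes was 0.07. Of the membrane genes, Atg9a was higher by 0.74 ± 0.056 (adjusted p = 7.8e-11), Wipi1 by 0.55 ± 0.061 (adjusted p = 4.67e-08) and Wipi2 by 0.49 ± 0.038 (adjusted p = 1.51e-10), and Atg2a had a log2 fold change of -0.77 ± 0.043 (adjusted p = 4.9e-13). Among the conjugation genes, Atg3 was at -0.78 ± 0.045 (adjusted p = 7.35e-13), Atg10 at -0.63 ± 0.166 (adjusted p = 0.00163), Atg5 at -0.36 ± 0.062 (adjusted p = 2.11e-05) and Atg12 at -0.18 ± 0.045 (adjusted p = 0.00124).

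Library totals moved the median of all genes by 0.32 in this comparison and the share of calls that were higher to 67.4%, in place of 52.6%, with 6 members higher and 2 lower. Of all 14418 genes tested, 7817 were then higher and 3778 lower. Atg3 (-0.47) and Atg2a (-0.45) were still lower and Atg9a, Wipi1 (0.87) and Wipi2 (0.81) still higher. Atg12 turned to a call of 0.14, the calls of Atg5 (-0.04) and Atg10 (-0.32) were lost, and Atg7 (0.34) and Atg16l1 (0.37) were called higher. With TMM, Atg7 (0.02 ± 0.062, adjusted p = 0.754) and Atg16l1 (0.06 ± 0.052, adjusted p = 0.319) did not pass.

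**Figure D4:**
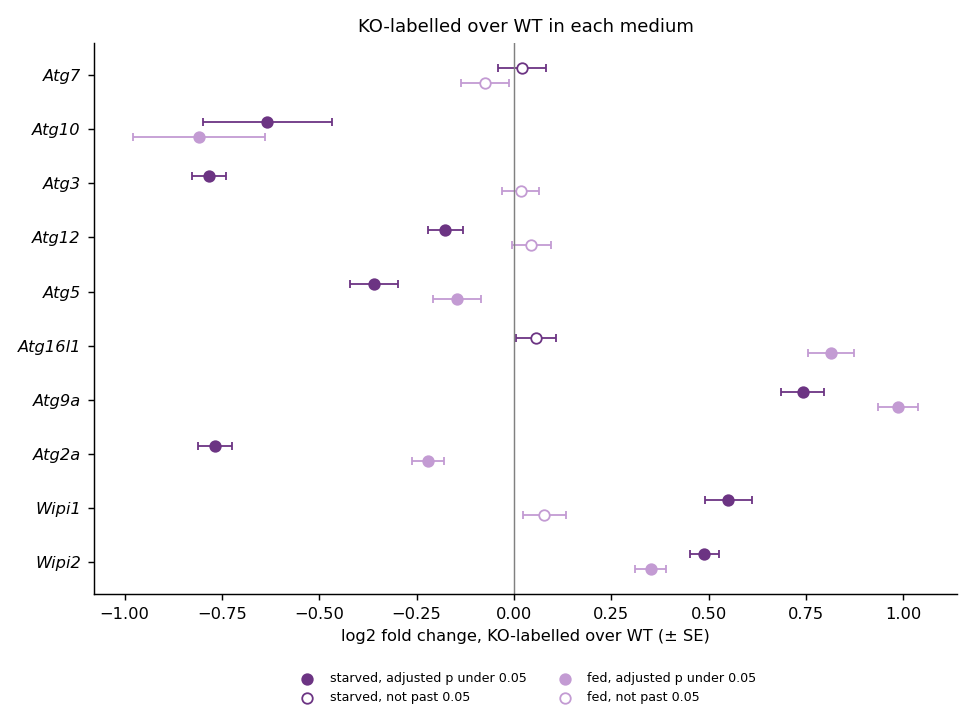
Log2 fold change of KO-labelled over WT (± SE, TMM scaling) for each gene in starved cells (dark) and fed cells (light); filled points passed an adjusted p of 0.05. Atg9a and Wipi2 are higher and Atg2a is lower in both media, Atg3 is lower in starved cells (-0.78) and near 0 in fed cells (0.02), and the starved value of Atg12 (-0.18) turns to 0.14 with library totals.

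Ratios of paired genes within a library do not depend on the scaling between libraries. They were taken per length, as counts per kb of the transcript matched by accession. The ratio of Wipi2 to Wipi1 was 2.12 and 1.97 in KO-labelled starved and 0.843 and 0.861 in KO-labelled fed libraries, and 2.08 and 2.19 in WT starved and 0.700 and 0.711 in WT fed libraries. It was thus set apart by medium, with the starved libraries of both labels overlapping. The ratio of Atg9a to Atg2a was 1.81 and 1.71 in KO-labelled starved and 1.88 and 1.91 in KO-labelled fed libraries, and 0.586 and 0.650 in WT starved and 0.841 and 0.801 in WT fed libraries. Here all KO-labelled libraries were above 1 and all WT libraries below it. The ratio of Atg3 to Atg7 was 3.86 and 3.78 in KO-labelled starved and 3.17 and 2.95 in KO-labelled fed libraries, and 7.05 and 6.34 in WT starved and 2.86 and 2.89 in WT fed libraries. The WT starved libraries stood apart in this ratio. The ratio of Atg16l1 to Atg5 was 1.19 and 1.30 in KO-labelled starved and 0.872 and 0.811 in KO-labelled fed libraries, and 0.975 and 0.895 in WT starved and 0.433 and 0.432 in WT fed libraries. With 2 libraries a group these ratios were not tested.

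**Figure D5:**
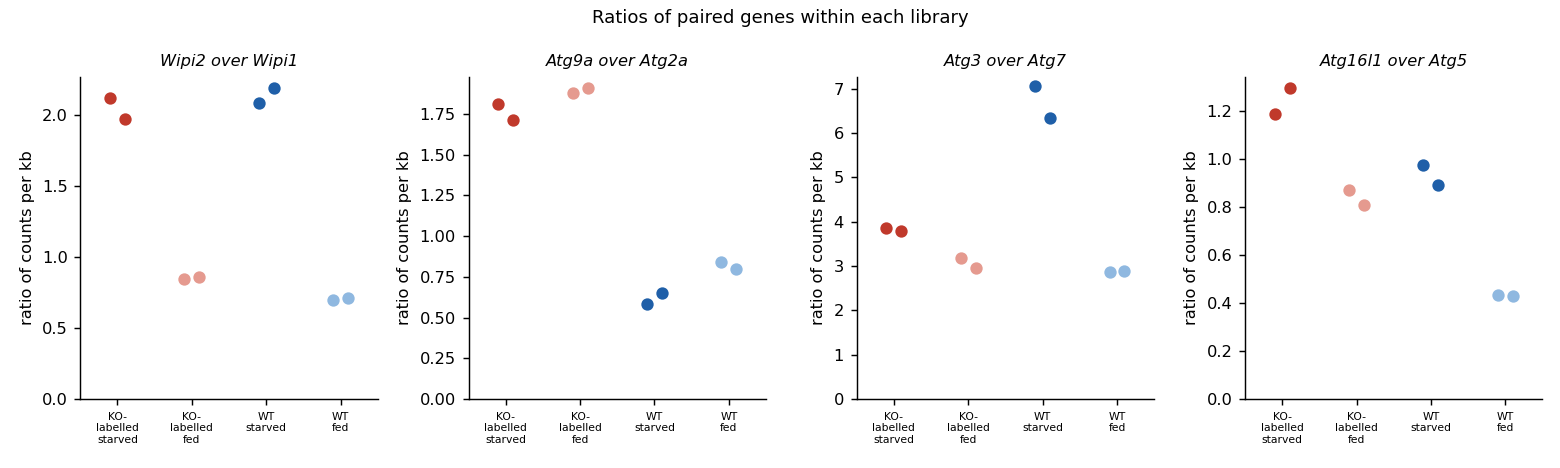
Ratio of counts per kb between paired genes in each library (points; linear axes from 0; 2 libraries a group). Wipi2 over Wipi1 separates starved libraries (1.97 to 2.19) from fed ones (0.700 to 0.861), and Atg9a over Atg2a separates KO-labelled libraries (1.71 to 1.91) from WT ones (0.586 to 0.841).

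Levels of different genes were compared per length, as CPM per kb, with means ± SD of 2 libraries. In KO-labelled starved cells Atg3 (35.6 ± 1.3) and Wipi2 (31.1 ± 0.93) led, Atg16l1 (17.4 ± 0.45), Atg12 (15.9 ± 0.58), Wipi1 (15.2 ± 0.37), Atg9a (14.1 ± 0.65) and Atg5 (14.0 ± 0.53) came next, and Atg7 (9.33 ± 0.18), Atg2a (8.02 ± 0.061) and Atg10 (2.42 ± 0.27) were lowest. Atg12 and Wipi1 overlapped there, as did Atg9a and Atg5. In KO-labelled fed cells the order was led by Atg3 (22.3 ± 1.2), Wipi1 (20.8 ± 0.033), Atg9a (19.5 ± 0.44) and Wipi2 (17.7 ± 0.25). In WT starved cells Atg3 (61.3 ± 0.58) stood well above Wipi2 (22.2 ± 0.065), Atg5 (18.0 ± 1.0) and Atg12 (17.9 ± 0.015) overlapped, and Wipi1 (10.4 ± 0.35), Atg7 (9.19 ± 0.60) and Atg9a (8.42 ± 0.45) were low. In WT fed cells Atg3 (22.0 ± 0.28) and Wipi1 (19.7 ± 0.29) led and Atg16l1 (5.59 ± 0.17) and Atg10 (3.02 ± 0.41) were lowest. Atg3 was thus first and Atg10 last in all 4 groups. Lengths came from a later annotation than the counts and may differ from those the authors counted.

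Other genes of the pathway were taken from lists chosen, like the set itself, with earlier results of these data known. Their counts stand beside shares of all genes called higher and lower of 39.4% and 40.3% in KO-labelled starvation, 36.7% and 44.8% in WT starvation, 41.9% and 37.7% between starved genotypes, 34.5% and 39.8% between fed genotypes, and 34.1% and 30.4% in the response difference. With library totals, 4261 of all 14418 genes tested were higher and 7242 lower in KO-labelled starvation, and 3397 and 8629 in WT starvation. These numbers were 7817 and 3778 between starved genotypes, 5811 and 4737 between fed genotypes, and 6306 and 3099 in the response difference. Among 11 relatives of the conjugation systems, the ATG8 proteins, ATG4 proteases, Atg16l2 and Tecpr1, 7 rose and 2 fell in KO-labelled starvation and 7 rose and 1 fell in WT starvation. With library totals the counts were 5 higher and 5 lower in KO-labelled cells and 3 higher and 6 lower in WT cells. Gabarapl1, an ATG8 protein gene, rose by 0.96 ± 0.037 in KO-labelled and 0.97 ± 0.037 in WT cells (0.52 with library totals). Map1lc3b, the gene of LC3B, which ATG3 attaches to lipid, rose by 0.11 ± 0.032 in KO-labelled and 0.85 ± 0.032 in WT cells. The KO-labelled value turned to -0.15 with library totals and to -0.0048 with a minimum of 5 CPM, and lost its call with DESeq2 (0.07) and without either WT starved library (0.05 each), and the WT value was 0.39 with library totals. The response difference of -0.74 ± 0.045 (adjusted p = 8.25e-12) was -0.54 with library totals. Its level was 141 and 141 CPM in KO-labelled starved and 132 and 129 CPM in KO-labelled fed libraries, and 315 and 315 CPM in WT starved and 177 and 174 CPM in WT fed libraries. For Map1lc3a, another LC3 gene of the list, the response difference went the other way (0.37 ± 0.084, adjusted p = 0.000562). Tecpr1, whose product binds the ATG12-ATG5 conjugate, rose by 0.79 ± 0.075 in KO-labelled cells and fell by 0.22 ± 0.085 in WT cells (difference 1.01 ± 0.113, adjusted p = 1.02e-07). The WT call was lost with DESeq2 and its size factors (-0.16 each), with only the WT libraries (-0.15) and without WT fed replicate 1 (-0.17), WT starved replicate 1 (-0.11) or WT starved replicate 2 (-0.18), and the value was -0.68 with library totals. The response difference was higher for 3 and lower for 3 of the 11. KO-labelled libraries were higher than WT for 5 and lower for 4 in starved cells, and higher for 4 and lower for 3 in fed cells; Atg16l2, a relative of Atg16l1, was higher by 0.98 ± 0.104 and 1.07 ± 0.100.

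Of 10 relatives in membrane supply, 8 rose and 1 fell in KO-labelled starvation and 7 rose and 2 fell in WT starvation, with 3 higher and 6 lower in the response difference. With library totals 8 rose and 1 fell in KO-labelled cells, 6 rose and 4 fell in WT cells, and the response difference split into 4 and 4. KO-labelled libraries were higher than WT for 4 and lower for 5 in starved cells, and higher for 5 and lower for 3 in fed cells. Atg2b, the paralogue of Atg2a, rose by 0.43 ± 0.043 in KO-labelled and 0.82 ± 0.045 in WT cells (0.18 and 0.36 with library totals). Wdr45b, a further WIPI family gene, rose by 1.01 ± 0.047 in KO-labelled and 0.94 ± 0.048 in WT cells (0.49 in WT with library totals). The scramblase genes Tmem41b and Vmp1 had a higher response value in KO-labelled than in WT cells. Tmem41b rose by 1.24 ± 0.049 there and was at 0.07 ± 0.060 in WT cells (difference 1.17 ± 0.077, adjusted p = 2.92e-11). That WT value was called at -0.38 with library totals, and at 0.14 with DESeq2 size factors and 0.17 without WT starved replicate 1. Vmp1 rose by 0.48 ± 0.043 there and fell by 0.47 ± 0.044 in WT cells (difference 0.95 ± 0.061, adjusted p = 2.01e-11), at 0.23 and -0.92 with library totals, and at -0.31 in WT cells without WT starved replicate 2. Among those with a lower response value in KO-labelled cells, the difference was -0.72 ± 0.054 for Sh3glb1 and -0.65 ± 0.068 for Trappc8. It was -2.55 ± 0.629 for Atg9b, which had only 6 counts in each WT fed library. Other settings were not examined for Sh3glb1, Trappc8 and Atg9b.

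In the initiation and lipid kinase complexes, which act upstream of these genes, 7 of 12 rose and 4 fell in KO-labelled starvation and 7 rose and 2 fell in WT starvation, with 4 higher and 7 lower in the response difference. With library totals these counts were 5 and 5, 6 and 6, and 5 and 5. Atg14, a subunit of the lipid kinase complex that makes the lipid WIPI proteins bind, rose by 1.60 ± 0.053 in KO-labelled and 3.13 ± 0.054 in WT cells (difference -1.53 ± 0.077, adjusted p = 3.93e-13). Uvrag, a subunit that takes the place of ATG14 in the complex, rose by 0.17 ± 0.046 in KO-labelled and 1.13 ± 0.052 in WT cells. The KO-labelled value was -0.09 with library totals, and its call was lost with a minimum of 5 CPM (0.06) and without KO-labelled fed replicate 2 (0.13), and the WT value was 0.67 with library totals. Ulk2, an initiating kinase gene, fell by 0.57 ± 0.057 in KO-labelled and by 2.10 ± 0.070 in WT cells. The Ulk2 difference was 1.53 ± 0.092 (adjusted p = 6.62e-12). Atg13 rose more in KO-labelled (1.795 ± 0.049) than in WT cells (1.315 ± 0.055). Its difference was 0.48 ± 0.0735 (adjusted p = 7.64e-06). KO-labelled libraries were higher than WT for 7 and lower for 5 of the 12 in starved cells, and higher for 6 and lower for 0 in fed cells, where the smallest log2 fold change of the list was 0.04. With library totals the counts between genotypes were 7 higher and 1 lower in starved cells and 12 higher and 0 lower in fed cells for this list. They were 7 and 3 in starved and 5 and 2 in fed cells for the conjugation relatives, and 6 and 3 in starved and 5 and 2 in fed cells for the membrane relatives. Of all 14418 genes tested, 7817 were then higher and 3778 lower in starved cells, and 5811 higher and 4737 lower in fed cells.

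The likeness of patterns over the 8 libraries was measured as the root mean square difference of log2 CPM, each gene centred on its own mean. It is not scaled by the size of a gene's changes, so genes that change little lie near each other. Within the set Atg5 and Atg7 were nearest to each other (0.141), followed by Atg3 and Atg12 (0.228). The mean of Atg5 was highest in WT starved libraries, and that of Atg7 in KO-labelled starved libraries, where it overlapped WT starved. Wipi1 and Atg9a, nearest to each other, were 0.37 apart. Among all genes tested the nearest to Wipi1 was Pdcl (0.0354), to Atg3 Plin2 (0.0454), to Atg12 Tpd52l1 (0.0434) and to Atg16l1 Laptm4b (0.0744). The second nearest were Fem1b (0.0521), Gga3 (0.0473), Phlda1 (0.0469) and Crlf2 (0.0802), in the same order. A search over 14418 genes can find nearer matches than one over 10, so these distances are not comparable with those within the set.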

How the data were processed

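The deposited table holds raw read counts, whole numbers per RefSeq transcript, in 31055 rows. Per the submitters' processing notes, TopHat2 2.0.9, bedtools and mm9 were used, in roles not stated. Strand, filters and the treatment of multiply mapped reads are not stated either. A further 4 columns of values matched no labelled sample and were not used. Samples were grouped by title. The tests used edgeR 4.0.16 (R 4.3.3) with TMM scaling, filterByExpr and a mean for every group, fitted to all 8 libraries with 4 residual degrees of freedom and a common biological coefficient of variation of 0.0341. Quasi-likelihood p-values were Benjamini-Hochberg adjusted over 14418 genes and called under 0.05. SE was obtained by dividing the log2 fold change by the root of F. CPM are counts scaled by TMM-adjusted library totals. The fit was tested on simulated data in which 200 genes were changed, evenly up and down, in KO-labelled starved libraries only. Most genes were called in the real data, so that simulation cannot speak to the choice of scaling. Replicate libraries differed by more than sampling noise (chi-square per degree of freedom 3.31 to 6.01). All 10 genes are named, and of other lists genes among the 4 largest changes of a comparison, except Atg2b, chosen after its values were seen. The members, lists and ratios were chosen with earlier results of these data known. Alternatives were library totals, DESeq2 size factors, DESeq2 1.42.0, other filters, summed rows, fits to the compared groups, left-out libraries and a replicate block. Lengths came from GENCODE M21, and promoters and chromosomes from RefSeq (GRCm38.p6); none of their coordinates was joined to the counts. The lowest member count was 143.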

Additional observations from a re-analysis of the deposited data

Results flagged for a closer look

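For 8 of the 10 genes the starvation response differed between the genotype labels by a test of the difference itself (KO-labelled minus WT, log2, edgeR's quasi-likelihood test with Benjamini-Hochberg adjustment), where 64.5% of all genes tested did. The difference was -0.80 for Atg3, -0.76 for Atg16l1, -0.55 for Atg2a, -0.245 for Atg9a, -0.22 for Atg12, -0.21 for Atg5, 0.47 for Wipi1 and 0.14 for Wipi2. The Wipi2 difference was lost under 10 of 15 other settings. Those of Atg9a (-0.04), Atg12 (-0.02) and Atg5 (-0.01) were lost with library totals. The Atg5 difference was lost under 4 of 15 settings, library totals among them.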

How the results depend on the processing

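Members called in either direction were 10 in KO-labelled starvation (7 to 10 over 16 other settings; 79.7% of all genes), 9 in WT starvation (8 to 10; 81.6%), 8 for starved genotypes (7 to 8; 79.6%), 6 for fed genotypes (5 to 8; 74.4%) and 8 in the response difference (6 to 8 over 15 settings; 64.5%). These totals, and those of all genes, moved by at most 1.5 times, but counts in 1 direction moved more. With library totals all genes higher in WT starvation were 3397 in place of 5296. The other splits of members stand with their comparisons. Members in the response difference were then 3 higher and 3 lower in place of 2 and 6, where 6306 of all 14418 genes tested were higher and 3099 lower. Without the Wipi2 call, lost under 10 settings, 1 member was higher there, and without WT starved replicate 1 1 member fell in WT starvation in place of 2. With a minimum of 5 CPM 1 member was lower between fed genotypes in place of 3. Of the single gene values, library totals turned 3 calls: Atg7 (-0.20) and Atg2a (-0.27) in WT starvation and Atg12 (0.14) between starved genotypes; in each case the scaling between libraries is what was changed. Among the values printed for single relatives it turned Map1lc3b (-0.15) and Uvrag (-0.087) in KO-labelled and Tmem41b (-0.38) in WT starvation, and a minimum of 5 CPM turned Map1lc3b in KO-labelled starvation (-0.0048), the cause of which was not tested. With library totals a further 10 calls were lost and 6 gained. DESeq2 lost 2 calls (Atg5 between fed genotypes and the Wipi2 response difference). Left-out libraries lost 16 and gained 4 calls among 400 values. With the replicate number as a block all 50 values kept their sign and side of the threshold, and the block called 10 members in KO-labelled starvation and 9 in WT starvation. The numbers are not stated to pair samples, and deviations of same-numbered libraries correlated between groups at -0.026 to 0.0205. With a minimum of 5 CPM Atg10 was not tested. The depth limits Atg10 most.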

Other observations

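Enzymes of other ubiquitin-like conjugation systems gave a comparison for the autophagy pair of systems. Of 13 such genes 7 rose and 4 fell in KO-labelled starvation and 10 rose and 2 fell in WT starvation, with 3 higher and 6 lower in the response difference. Of all genes 39.4% rose and 40.3% fell in KO-labelled starvation, 36.7% rose and 44.8% fell in WT starvation, and 34.1% were higher and 30.4% lower in the response difference. With library totals these counts were 6 and 6, 6 and 7, and 6 and 3. For all 14418 genes tested they were then 4261 and 7242, 3397 and 8629, and 6306 and 3099. Ube2f, a NEDD8-conjugating enzyme gene, rose by 0.91 ± 0.052 in KO-labelled and 1.70 ± 0.062 in WT cells. Uba7 and Ube2l6, the activating and conjugating enzyme genes of ISG15, fell in starved cells under both labels. Uba7 fell by 1.99 ± 0.107 in KO-labelled cells and fell by 3.91 ± 0.269 in WT cells, where starved libraries held only 6 and 12 counts. Ube2l6 fell by 3.16 ± 0.112 in KO-labelled cells and fell by 2.93 ± 0.205 in WT cells, where starved libraries held 17 and 42 counts. Both were higher in KO-labelled than in WT fed libraries, Uba7 by 2.72 ± 0.117 and Ube2l6 by 2.70 ± 0.109. KO-labelled libraries were higher than WT for 8 and lower for 5 of the 13 in starved cells, and higher for 7 and lower for 6 in fed cells (8 and 3, and 7 and 6, with library totals). Of all genes 41.9% were higher and 37.7% lower in starved cells, and 34.5% higher and 39.8% lower in fed cells. With library totals 7817 of all 14418 genes tested were higher and 3778 lower in starved cells, and 5811 higher and 4737 lower in fed cells.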
